A study of Homo sapiens with 26 samples.

Results

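The genes described here are 10 long non-coding RNAs (lncRNAs): SNHG1, SNHG5, SNHG6, SNHG7, SNHG8, SNHG12, SNHG15, SNHG16, GAS5 and ZFAS1. They are 10 of the 26485 gene symbols in each of 5 tables of RNA-seq values from human esophageal squamous cell carcinoma (ESCC) lines, and they were picked by name after SNHG7 was seen to be higher when BRDT was depleted in both lines tested. Their values under siBRDT are therefore given as a description, without a p-value. Counts of genes that passed a threshold under siBRDT are a description too, and nothing is read from them. The study profiled 26 libraries from KYSE180, TE6 and KYSE150 cells to ask how BRDT, a testis-specific reader of acetylated chromatin that some of these tumours express, and p63, the squamous lineage transcription factor encoded by TP63, act on gene expression. KYSE180 cells were transfected with a control siRNA (siCont, 3 libraries) or an siRNA against BRDT (siBRDT, 3 libraries), and in another experiment with siCont (2 libraries) or an siRNA against TP63 (siTP63, 2 libraries). TE6 cells received siCont, siBRDT or siTP63 (2 libraries each) in 1 experiment, so both TE6 knockdowns share their controls. KYSE150 cells received siCont or siTP63 (2 libraries each), or a plasmid for BRDT overexpression (BRDT-OE, 3 libraries) or its control (cont, 3 libraries). KYSE180 and TE6 were grown with 10% serum and KYSE150 with 5%, and each line is 1 established tumour line. The sources used here do not say whether libraries of a group came from separate cultures, so the p-values measure the spread between these libraries, which may be technical.

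Small nucleolar RNAs (snoRNAs) guide the chemical modification of ribosomal RNA: box C/D snoRNAs direct 2′-O-methylation and box H/ACA snoRNAs direct pseudouridylation. Most human snoRNAs are cut out of the introns of a host gene, and for the SNHG (small nucleolar RNA host gene) family, GAS5 (growth arrest-specific 5) and ZFAS1 (ZNFX1 antisense RNA 1) the spliced exons encode no known stable protein. Many of these hosts begin at a 5′ terminal oligopyrimidine (TOP) start, as the ribosomal protein genes do, and the spliced RNAs of several are known substrates of nonsense-mediated decay, which removes RNAs whose translation stops early. GAS5 is named for its accumulation in growth-arrested cells. By those of their snoRNAs that have values here, SNHG1, SNHG5, SNHG6, SNHG16, GAS5 and ZFAS1 are called box C/D hosts and SNHG7, SNHG8 and SNHG15 box H/ACA hosts. SNHG12 carries snoRNAs of both kinds. The annotation also places SNORA103, of the box H/ACA kind by its name, inside GAS5, and it has no values here.

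The stretches around the annotated start sites are shown because the start is the feature that these hosts are known to share with the ribosomal protein genes, whose levels are compared with theirs later. Each holds 50 bases before the first transcribed base and 40 bases from it, 5′ to 3′. Capitals mark TATAA and the unbroken run of C and T that begins at the first base.
SNHG1: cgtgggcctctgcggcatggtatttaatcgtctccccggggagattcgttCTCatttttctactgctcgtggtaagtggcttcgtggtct
SNHG5: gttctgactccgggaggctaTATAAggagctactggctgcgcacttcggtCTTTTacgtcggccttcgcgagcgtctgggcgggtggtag
SNHG16: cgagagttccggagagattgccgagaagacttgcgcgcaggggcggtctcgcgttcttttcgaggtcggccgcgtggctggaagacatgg
GAS5: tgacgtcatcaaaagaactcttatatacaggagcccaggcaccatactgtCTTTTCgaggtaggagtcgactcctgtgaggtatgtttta
ZFAS1: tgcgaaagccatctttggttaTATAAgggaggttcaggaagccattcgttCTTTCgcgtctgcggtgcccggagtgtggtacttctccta
SNHG7: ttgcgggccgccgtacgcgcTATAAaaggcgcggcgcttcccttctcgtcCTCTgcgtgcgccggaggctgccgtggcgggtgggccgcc
SNHG8: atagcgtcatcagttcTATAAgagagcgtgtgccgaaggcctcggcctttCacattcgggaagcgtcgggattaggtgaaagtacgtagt
SNHG12: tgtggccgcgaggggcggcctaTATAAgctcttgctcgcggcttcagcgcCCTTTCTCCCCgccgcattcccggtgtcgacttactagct

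All stretches come from the RefSeq promoter table on GRCh38.p14 except that of GAS5, which was read from hg38 at chr1:173867950-173868039, because 50 of its 91 GENCODE transcripts begin at that first base. Of the members, 8 have a promoter in the table, GAS5 included. TATAA, a motif added after the stretches had been read and searched on the gene's strand from 40 to 19 bases before the start, was present in 5 of the 8 (SNHG5, SNHG7, SNHG8, SNHG12 and ZFAS1), against 4.14% of all 27305 promoters in the table. A start with C followed by at least 4 pyrimidines was present in 3 of the 8 (SNHG5, SNHG12 and ZFAS1), against 4.04% of all promoters and 67.7% of 62 cytoplasmic ribosomal protein genes. SNHG1 and SNHG7 begin with shorter runs of 3 and 4 bases, and the GENCODE start of GAS5 begins with a run of 6. The E-box CACGTG, searched on both strands over 300 bases, was in 1 of the 8, SNHG7 (7.43% of all promoters), and the p53 family consensus decamer, which p63 can also bind, was in 1 of the 8, ZFAS1 (6.54%). A match gives the letters of the sequence and not a bound site.

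In hg38 coordinates (GENCODE release 44) the box C/D hosts lie at chr11:62851978-62855953 (SNHG1), chr6:85650491-85678932 (SNHG5), chr17:76557727-76670985 (SNHG16), chr1:173858559-173868882 (GAS5) and chr20:49278178-49299600 (ZFAS1), with SNHG6 on chromosome 8. The others lie at chr9:136721366-136728184 (SNHG7), chr4:118278703-118285316 (SNHG8), chr7:44983019-44986961 (SNHG15) and chr1:28578538-28583132 (SNHG12). SNHG8, SNHG16 and ZFAS1 are on the plus strand and the other members on the minus strand. Neighbouring genes were placed by the RefSeq spans of the members, which are shorter for SNHG8 and SNHG16. On the GENCODE spans printed here, ST6GALNAC2 lies inside SNHG16 and PRSS12 overlaps SNHG8, both on the other strand.

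Libraries held 7582089 to 19372441 reads, and every member had a mean normalised count (reads divided by the library's size factor) of at least 10 in each table. Of the targeted genes, BRDT fell by 2.75 on the log2 scale under siBRDT in KYSE180 and by 2.23 in TE6, and its mean normalised count was 10.2 in the KYSE150 controls and 16447 in BRDT-OE. TP63 had log2 fold changes of -1.70 ± 0.14, -4.45 ± 0.12 and -2.34 ± 0.26 (SE) under siTP63 in KYSE180, TE6 and KYSE150, with limma adjusted p of 4.9e-10, 1.34e-10 and 0.0818, so the KYSE150 decrease of its own target did not pass the test with 2 libraries against 2. TP63 also fell under siBRDT, by 0.58 in KYSE180 and by 1.15 in TE6. Squamous epithelial marker genes summed to 899.8 to 9511 RPM (reads as a share of the library total, on a fixed scale) per library, against 3.46 to 118 for fibroblast, 6.20 to 111 for leukocyte and 0.318 to 12.0 for endothelial markers.

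Under siBRDT the 10 lncRNAs were higher as a group in both lines. Together they took between 0.0622 and 0.0701% of all reads in the KYSE180 siCont libraries and between 0.105 and 0.115% in the siBRDT libraries, and in TE6 the share was 0.163% in both siCont libraries and between 0.295 and 0.311% in siBRDT. Their median log2 fold change was 0.47 in KYSE180 and 0.98 in TE6, beside -0.0052 and -0.039 over all genes tested. In both lines the highest of the 10 values belonged to SNHG7, the box H/ACA host by which the set was chosen.

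**Figure D1:**
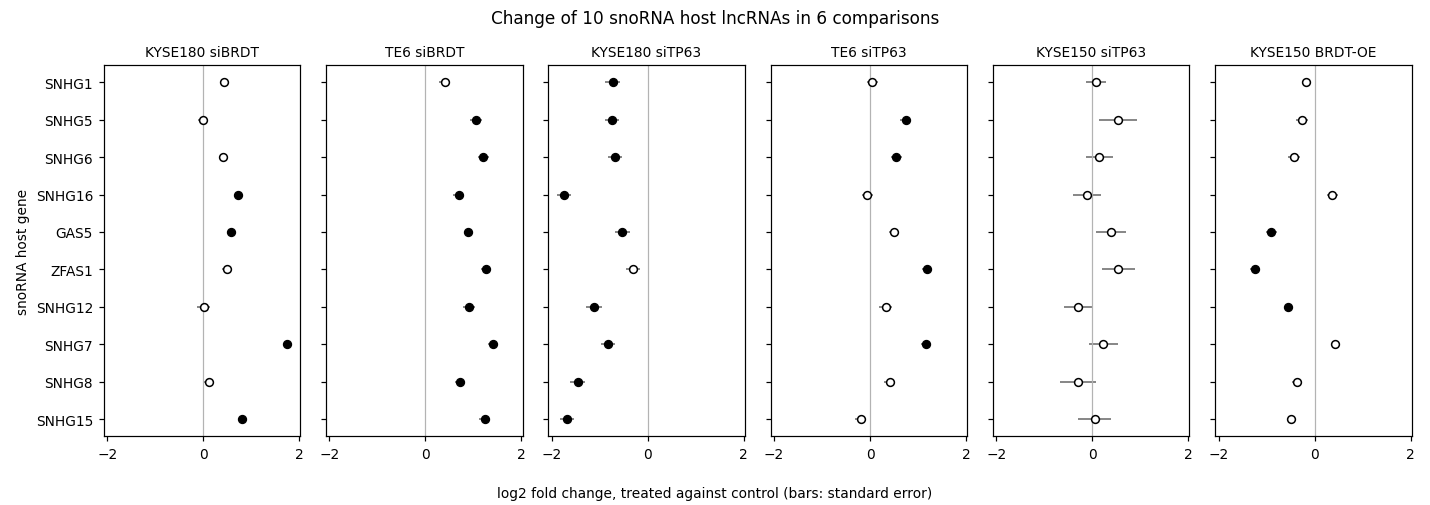
Log2 fold change (treated against control, log2 of normalised count plus 1) of the 10 lncRNAs (rows) in the 6 comparisons (panels), with bars for the standard error; filled points passed the call rule (limma adjusted p under 0.05 together with a change of 0.5 or more on the log2 scale) and open points did not. All 10 points lie below 0 in KYSE180 siTP63 and 8 lie above 0 in TE6 siTP63. The siBRDT contrasts took part in choosing the genes, so filled points there are a description only.

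In KYSE180, normalised counts of SNHG7 were 724, 677 and 598 in the siCont libraries and 2251, 2431 and 2069 in the siBRDT libraries. Every siBRDT library thus stood above every siCont library, and the log2 fold change was 1.76 ± 0.081 (SE, n = 3 and 3). FAM69B, which overlaps SNHG7 on the other strand, had mean normalised counts of 769 and 718 in the siCont and siBRDT libraries. SNHG15, host of a single box H/ACA snoRNA, was 556, 488 and 471 in siCont and 910.1, 934 and 816 in siBRDT, a log2 fold change of 0.81 ± 0.082. Among the box C/D hosts, GAS5 was 1904, 1873 and 1605 in siCont and 2830.3, 2628 and 2569 in siBRDT (0.58 ± 0.073), and SNHG16 was 636, 624 and 591 in siCont and 1043, 971 and 1031 in siBRDT (0.72 ± 0.068). Neither pair of groups overlapped. ST6GALNAC2 and PRSS12 had log2 fold changes of -1.31 and -1.26 in these libraries. They lie within 1 kb of the RefSeq spans of SNHG16 and SNHG8 and overlap their GENCODE spans on the other strand. ZFAS1, SNHG1 and SNHG6 had log2 fold changes of 0.49, 0.44 and 0.42, also without overlap. SNHG8, SNHG12 and SNHG5 had values of 0.12, 0.010 and -0.00057, and their siBRDT and siCont libraries overlapped. By the call rule (limma adjusted p under 0.05 together with a change of 0.5 or more on the log2 scale) 4 of the 10 were higher, where 14.5% of all genes were, and 7 of the 10 had all treated libraries above all controls, as 31% of all genes did. This contrast took part in choosing the genes and nothing is read from these counts.

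In TE6 the siBRDT libraries stood above the siCont libraries for all 10 lncRNAs, and 9 were called higher, where 15.6% of all genes were called higher and 34.5% had all treated libraries above both controls. SNHG7 was 743 and 681 in siCont and 1953 and 1834 in siBRDT, a log2 fold change of 1.41 ± 0.10 (SE, n = 2 and 2). Of the box C/D hosts, ZFAS1 was 4402 and 4287 in siCont and 10321 and 10571 in siBRDT (1.27 ± 0.10). GAS5 was 5587 and 5667 in siCont and 10325 and 10479 in siBRDT (0.89 ± 0.090). The siBRDT replicates of both genes lay closer to each other than to any control. SNHG15, SNHG6, SNHG5, SNHG12, SNHG8 and SNHG16 had log2 fold changes of 1.23, 1.20, 1.06, 0.91, 0.71 and 0.69, and SNHG1, the one that missed the call rule, 0.40. SNHG5 and SNHG12 were thus higher in TE6 (478 and 508 in siCont and 1089 and 966 in siBRDT for SNHG5) while in KYSE180 their libraries overlapped. The difference between the lines was not tested. PRSS12, near SNHG8, had a log2 fold change of -0.52 under siBRDT in TE6. These values and counts carry the same limit as those of KYSE180, since this contrast too took part in the choice. Nothing is read from the counts.

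**Figure D2:**
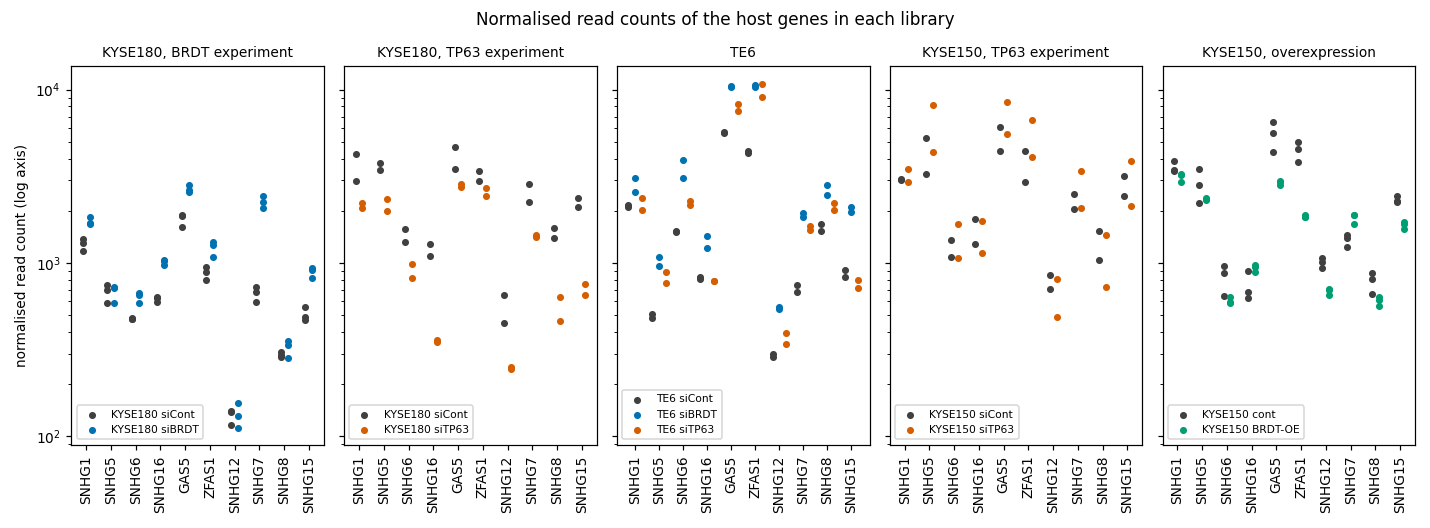
Normalised count of each lncRNA in every library (log axis), with 1 panel per experiment, 1 column per gene and 1 point per library, coloured by group. Tables were normalised separately, so heights compare within an experiment only. SNHG7 libraries under siBRDT lie above their siCont libraries in KYSE180 and TE6.

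After TP63 depletion in KYSE180 the same lncRNAs were lower. All 10 had both siTP63 libraries below both siCont libraries, as 40.4% of all genes tested did, and 9 of the 10 fell by the call rule, against 25.7% of all genes. Their median log2 fold change was -0.79, beside 0.00064 over all 13924 genes tested, and their share of all reads was between 0.132 and 0.152% in siCont and between 0.115 and 0.120% in siTP63. In bulk RNA a lower level per cell and a smaller share of cells with the RNA cannot be told apart.

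SNHG16, a box C/D host, had normalised counts of 1096 and 1285 in siCont and 349 and 359.9 in siTP63, and fell by 1.74 ± 0.15 on the log2 scale (SE, limma adjusted p = 4.1e-10). SNHG15, a box H/ACA host, was 2372 and 2111 in siCont and 752 and 651 in siTP63 and fell by 1.68 ± 0.14 (limma adjusted p = 5.05e-10). SNHG8, which carries a box H/ACA snoRNA, was 1592 and 1385 in siCont and 633 and 460.0 in siTP63. SNHG12, the mixed host, was 651 and 452 and 252 and 245. Neither gene overlapped between groups, and they fell by 1.46 and 1.12 on the log2 scale. SNHG7 had counts of 2867 and 2257 in siCont and 1442 and 1415 in siTP63, with no overlap, and fell by 0.83 ± 0.15 (limma adjusted p = 2.8e-05). FAM69B, opposite SNHG7, fell with it, from a mean of 1278 to 762 (log2 fold change -0.74, limma adjusted p = 8.21e-05). TRNAU1AP, which overlaps SNHG12 on the other strand, and SLC3A2, within 1 kb of SNHG1, fell by 0.77 and 0.54, and ZBTB37, opposite GAS5, rose from 14.5 to 30.8. SNHG5, SNHG1 and SNHG6 fell by 0.74, 0.73 and 0.69. GAS5, at 3490.3 and 4670.4 in siCont and 2842 and 2757 in siTP63, fell by 0.53 ± 0.15 (limma adjusted p = 0.00461). ZFAS1 did not pass the test: its counts were 2978 and 3400.4 in siCont and 2724 and 2429 in siTP63, and its log2 fold change was -0.31 ± 0.14 (limma adjusted p = 0.0696). ZNFX1, the gene that ZFAS1 lies antisense to, rose from a mean of 308 to 819.7 in the same libraries (log2 fold change 1.41), and since the sources used here do not state that counting used strand, reads of a member and of a gene that overlaps it on the other strand cannot be told apart.

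How far these genes fell depends on the scaling of the libraries. Totals of the deposited values were lower in the siTP63 than in the siCont libraries, and when libraries were instead scaled to equal total reads, which moved the median of all genes by 0.52, 4 of the 10 were called lower (SNHG8, SNHG12, SNHG15 and SNHG16), GAS5 had a log2 fold change of -0.0041 and ZFAS1 one of 0.22. Without the siCont library of replicate 2, SNHG1 (-0.47) and GAS5 (-0.32) were no longer called.

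In TE6 the same siRNA target gave the other direction for part of the set. SNHG7, SNHG5, SNHG6 and ZFAS1 rose, no member fell, and the median log2 fold change of the 10 was 0.45, beside -0.011 over all genes. The 4 of 10 called higher compare with 18.3% of all genes tested. All treated libraries stood above the controls for 7 of the 10, as for 39.8% of all genes, and below them for 2 of the 10, as for 40.7%. Their share of reads was 0.163% in siCont and between 0.241 and 0.265% in siTP63. The controls are those of the TE6 siBRDT comparison, by which the set was chosen, so this test is not independent of that choice.

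ZFAS1, a box C/D host, had normalised counts of 4402 and 4287 in siCont and 10846 and 9048 in siTP63. Its libraries did not overlap and it rose by 1.19 ± 0.10 on the log2 scale (SE, limma adjusted p = 1.55e-06). ZNFX1 on the other strand also rose, by 0.65. SNHG7 was 743 and 681 in siCont and 1557 and 1631 in siTP63, and rose by 1.16 ± 0.10 (limma adjusted p = 2.31e-06), while FAM69B had means of 269.9 and 292. SNHG5 was 478 and 508 in siCont and 885 and 769 in siTP63, a rise of 0.74 ± 0.12 (limma adjusted p = 0.000244). SNHG6 rose by 0.55 ± 0.11. GAS5 had counts of 5587 and 5667 in siCont and 8320.1 and 7503 in siTP63 and a log2 fold change of 0.49 ± 0.090 (limma adjusted p = 0.000634), which passed the p threshold and missed the limit on size. SNHG8 and SNHG12, at 0.41 and 0.32, were in the same position. For SNHG1 (0.049, 95% CI -0.20 to 0.30), SNHG16 (-0.058, -0.30 to 0.18) and SNHG15 (-0.20, -0.44 to 0.041) no change was detected. Set side by side, SNHG15 was 825 and 915 in siCont, 2116 and 1973 under siBRDT and 802 and 715 under siTP63, and ZFAS1 under siBRDT was 10321 and 10571. With GAS5 the call turned on single libraries: it was called higher without the siCont library of replicate 2 (0.50) or the siTP63 library of replicate 2 (0.56).

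In KYSE150 limma called none of the 10 after TP63 depletion. For each of the 10 the normalised counts of the siCont and siTP63 libraries overlapped. None had an unadjusted p under 0.05, and log2 fold changes lay between -0.30 and 0.54. The overlap depends on the scaling: their share of all reads was between 0.150 and 0.175% in siCont and between 0.183 and 0.243% in siTP63. In RPM the groups did not overlap for SNHG1, SNHG5, SNHG6, SNHG7, GAS5 and ZFAS1, and overlapped for the other members. Scaling to total reads moved the median of all genes by 0.10. The share of all genes without overlap in RPM was not computed, so this is not shown to be particular to the members. SNHG7 was 2496 and 2046 in siCont and 2077 and 3399 in siTP63, GAS5 was 6112 and 4432 in siCont and 5547 and 8491 in siTP63, and SNHG5 was 5254 and 3240.4 in siCont and 4373 and 8193 in siTP63. In each case the siTP63 library of replicate 2 was the highest and that of replicate 1 lay within the range of the controls. Limma called 0% of the 12335 genes tested higher and 0% lower, with 2194 genes at an unadjusted p under 0.05. The quasi-likelihood test of edgeR called 0 genes, and DESeq2 called 201 higher and 261 lower, none of them among the 10. A fit that paired libraries of unlike replicate number called 2 of the 10 higher, and 1626 of all 12335 genes. It was chosen after seeing the data, and nothing is read from that count. The 95% confidence intervals were wide, from -0.44 to 1.51 for SNHG5 and from -0.49 to 0.96 for SNHG7.

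The response to siTP63 differed between TE6 and KYSE180 for all 10 lncRNAs. In a limma contrast of the log2 fold changes, TE6 minus KYSE180, each difference was above 0 with an adjusted p under 0.05, from 0.78 for SNHG1 to 1.99 for SNHG7, with a median of 1.48 beside 0.0075 over all 12711 genes. Of all genes, 30.6% had such a difference above 0 and 59.4% in either direction. SNHG7 fell in one line and rose in the other, and its difference was 1.99 ± 0.16 (SE, limma adjusted p = 1.2e-07). SNHG5 and SNHG6 also fell in KYSE180 and rose in TE6, with differences of 1.48 ± 0.16 and 1.24 ± 0.16. SNHG8 (1.87 ± 0.19), SNHG16 (1.68 ± 0.15), SNHG15 (1.48 ± 0.16), SNHG12 (1.44 ± 0.22), GAS5 (1.02 ± 0.17) and SNHG1 (0.78 ± 0.19) had been called in KYSE180 alone, and ZFAS1 (1.50 ± 0.16) in TE6 alone, and the test of the difference gave the bracketed values. Scaled to total reads, SNHG1 had a difference of 0.24 (limma adjusted p = 0.276) and the other 9 were past the threshold. The lines were transfected in separate experiments, so line and experiment cannot be told apart. The TE6 side rests on the control libraries of the siBRDT comparison by which the set was chosen, so this test is not independent of that choice either.

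**Figure D3:**
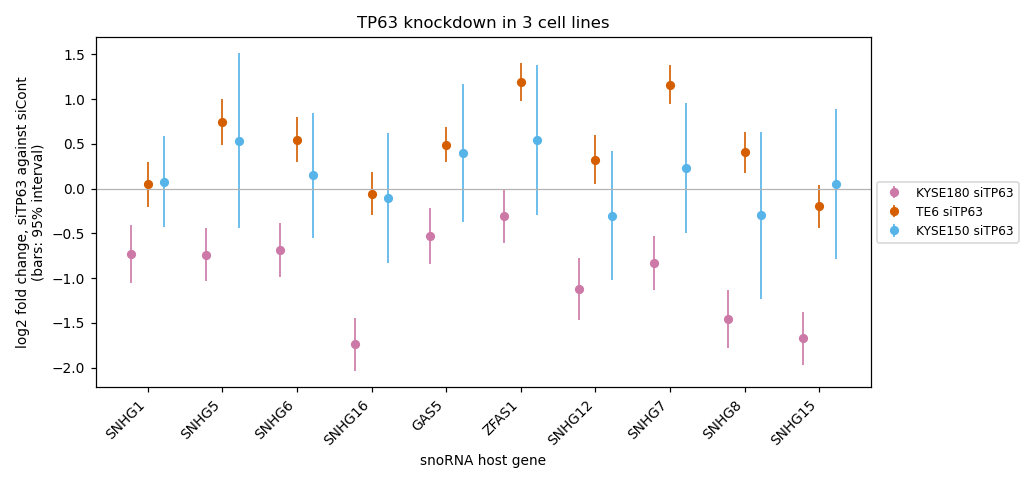
Log2 fold change under siTP63 (y axis) of each of the 10 lncRNAs (x axis) in KYSE180, TE6 and KYSE150 (colours), with bars for the 95% confidence interval. The TE6 point of every gene lies above its KYSE180 point, by 0.78 to 1.99, and the KYSE150 bars all cross 0.

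Neither contrast with KYSE150 gave a called member. KYSE150 minus KYSE180 differences were all above 0, from 0.81 to 1.73, and 8 of the 10 had an unadjusted p under 0.05, but the lowest adjusted p among them was 0.0572, for SNHG16 (1.64 ± 0.34, limma). Of all 11891 genes tested, 3140 had an unadjusted p under 0.05, and 0.774% were called higher. KYSE150 minus TE6 differences ran from -0.93 (SNHG7) to 0.25 (SNHG15), with 1 unadjusted p under 0.05. Of all 11593 genes tested, 2752 had an unadjusted p under 0.05, and 0.966% were called lower. These contrasts moved with single libraries. Leaving out 1 at a time, the SNHG16 difference from KYSE180 ranged from 1.32 to 1.95 and the SNHG7 difference from TE6 from -1.28 to -0.57. Other tools gave between 0 (edgeR) and 2 (DESeq2) called differences from KYSE180 and 0 from TE6. Of all 11891 genes, edgeR called 78 above KYSE180 and DESeq2 668.

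GAS5, ZFAS1 and SNHG12 fell with BRDT overexpression in KYSE150. ZFAS1 had normalised counts of 4541, 3801 and 4979 in the controls and 1849, 1881 and 1846 in BRDT-OE, and fell by 1.25 ± 0.093 on the log2 scale (SE, n = 3 and 3, limma adjusted p = 7.04e-06). GAS5 was 5652, 4369 and 6499 in the controls and 2917, 2977 and 2836 in BRDT-OE and fell by 0.90 ± 0.12 (limma adjusted p = 0.000183). SNHG12, with snoRNAs of both kinds, was 1006, 941 and 1069.9 and 655, 706 and 702 and fell by 0.55 ± 0.078 (limma adjusted p = 0.000275). None of the 3 overlapped with its controls, and for ZFAS1 and GAS5 the BRDT-OE libraries lay far closer to each other than the controls did. ZNFX1, opposite ZFAS1, had means of 1539 in the controls and 1929 in BRDT-OE. The 3 of 10 called lower compare with 16% of all genes tested, and none was called higher, where 10.5% of all genes were. The quasi-likelihood test of edgeR called 4 of the 10 lower and DESeq2 3, and neither called one higher.

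The other hosts moved by less than the size limit. SNHG15 (-0.48), SNHG6 (-0.43) and SNHG8 (-0.36) had adjusted p under 0.05 below the limit of 0.5, as did SNHG7 (0.42) and SNHG16 (0.37) in the other direction, and SNHG5 (-0.26) and SNHG1 (-0.18) had neither. SNHG7, the gene by which the set was chosen, was 1388, 1244 and 1447 in the controls and 1897, 1887 and 1682 in BRDT-OE, with all 3 treated libraries higher, so it stood above its controls in KYSE180 and TE6 with BRDT depleted and in KYSE150 with BRDT overexpressed. FAM69B on the other strand rose in BRDT-OE, from a mean of 29.2 to 57.6 (log2 fold change 1.07, limma adjusted p = 0.0237). Treated libraries were all below the controls for 7 of the 10 (background 29.3%) and all above for 1 (30.9%). The share of reads from the 10 genes was between 0.137 and 0.175% in the controls and between 0.0990 and 0.104% in BRDT-OE. ST6GALNAC2, which lies on the other strand inside the GENCODE span of SNHG16 and within 1 kb of its RefSeq span, fell by 2.33. MCMDC2, opposite SNHG6, passed the test in no siTP63 comparison and not in BRDT-OE, and GAS5-AS1, opposite GAS5, was below the filter on low values throughout. Without the control library of replicate 2, SNHG6 and SNHG15 were also called lower (5 in all), and without that of replicate 3, SNHG16 was called higher (0.52).

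The snoRNAs inside these genes have rows of their own in the tables, 35 in all. Mature snoRNAs carry no poly(A) tail and the libraries were prepared from poly(A) RNA, and these rows held few reads (258 to 1771 per library, summed over the 35). Most of these reads lay in rows inside GAS5 and SNHG1, and the rows inside SNHG7 held 0 reads in every library. Reads of an unspliced host intron cannot be told from those of a snoRNA. In TE6 after TP63 depletion, 8 of the 18 snoRNA rows tested fell, where 20.6% of all genes did, and none rose, while no host fell by the call rule. Of the 8 rows tested within GAS5, 6 fell, with a median log2 fold change of -1.03, while GAS5 itself stood at 0.49. SNORD80 had a value of -1.01 ± 0.19 (SE, limma adjusted p = 0.000677). SNORD29 and SNORD30 within SNHG1 fell by 1.33 and 1.38. The quasi-likelihood test of edgeR called 10 of the 18 rows lower and DESeq2 4. The fall did not hold with the length and GC trend over all genes removed, which could be done for 11 of the 18 rows. None of the 11 was then called lower, 2 were called higher and their median log2 fold change was -0.072.

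With BRDT overexpression the relation was turned around: 12 of 26 snoRNA rows tested rose, where 10.5% of all genes did, and none fell. No host rose by the call rule. Scaled to total reads, 6 rows rose, and with DESeq2 5. With the length and GC trend removed, 4 of the 18 rows that could be fitted rose. Of the 8 rows tested within SNHG1, 7 rose (median log2 fold change 0.68, against -0.18 for the host). Summed over the 35 rows, snoRNA reads equalled 4.34 to 5.12% of the host reads in the controls and 8.60 to 9.15% in BRDT-OE, without overlap. With 3 libraries against 3 the exact two-sided permutation p of that ratio was 0.1, the smallest this design allows. The snoRNA sum itself was 70.1 to 75.8 RPM in the controls and 86.9 to 93.9 in BRDT-OE. In TE6 the ratio was 4.28 to 4.87% in siCont, 2.21 to 2.49% under siBRDT and 1.73 to 2.09% under siTP63, and in KYSE180 it was 5.28 to 5.77% in siCont and 2.54 to 3.62% under siBRDT. The snoRNA sums overlapped between siCont and siBRDT, at 69.7 to 79.6 and 65.2 to 77.5 RPM in TE6 and 34.6 to 37.4 and 28.4 to 38.0 RPM in KYSE180, so under siBRDT the ratio followed the host reads, by which the set was chosen, while under siTP63 in TE6 the sum was 45.8 to 50.3 RPM. The siTP63 experiment of KYSE180 differed from these, at 2.47 to 2.64% in siCont and 2.59 to 2.67% in siTP63. There 7 of 14 rows fell along with their hosts, where 25.7% of all genes fell. Scaled to total reads 2 of the 14 fell, with DESeq2 4, and with the length and GC trend removed none of the 10 rows that could be fitted. In KYSE150 siTP63, where limma called no gene, the ratio overlapped between groups (2.65 to 4.75% and 1.98 to 3.61%).

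**Figure D4:**
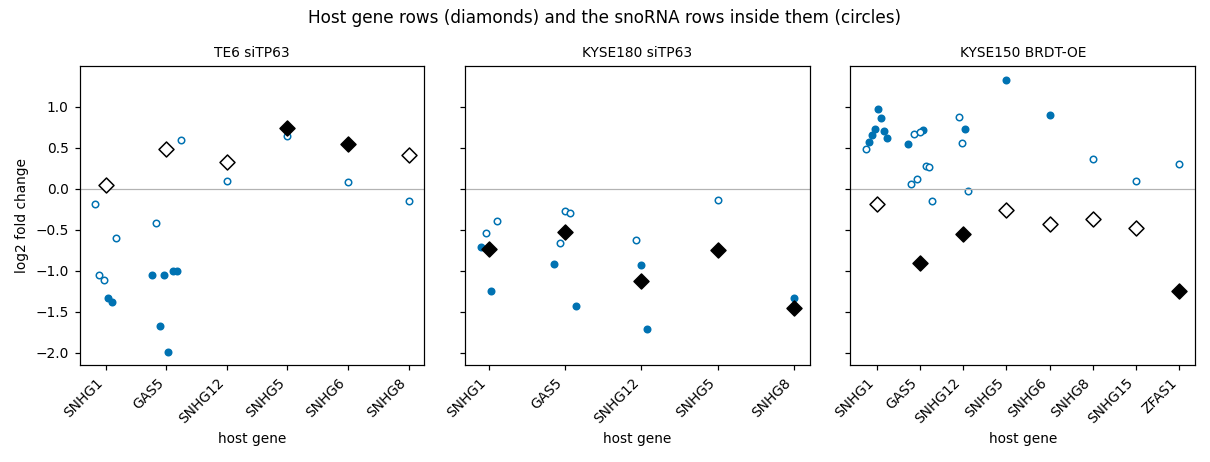
Log2 fold change (y axis) of each host (diamonds) and of the tested snoRNA rows inside it (circles) in 3 comparisons (panels), for hosts (x axis) with at least 1 such row; filled points passed the call rule. In BRDT-OE snoRNA points lie mostly above those of their hosts, and in TE6 siTP63 those of GAS5 and SNHG1 lie below them.

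Other genes of the same pathway were counted for comparison. In KYSE180 siTP63, 25.7% of all genes tested were called lower. In KYSE180 after TP63 depletion, 6 of the 12 other non-coding snoRNA hosts tested fell and none rose (median log2 fold change -0.71), with SNHG19 at -2.13 and DANCR at -1.52. Of 22 protein-coding hosts, 18 fell (median -1.09), as did 13 of 18 snoRNP proteins and assembly factors (median -0.90), among them FBL, the methyltransferase of box C/D particles, at -2.10. Of 77 cytoplasmic ribosomal protein genes, 76 fell (median -1.30). The median of the 10 lncRNAs, -0.79, lay on the same side of 0 as those of the 4 lists. Scaled to total reads, the medians of the 4 lists were still below 0, at -0.19, -0.57, -0.37 and -0.78, and that of the 10 lncRNAs was -0.26.

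The lists did not move as one elsewhere. Over all genes tested, 18.3% were called higher and 20.6% lower in TE6 siTP63, and 10.5% and 16% in BRDT-OE. Under siBRDT 14.5% of all genes were called higher in KYSE180 and 15.6% in TE6. In TE6 siTP63, 24 of 77 ribosomal protein genes rose and 1 fell (median 0.42), but of the other non-coding hosts 2 of 12 rose and 1 fell (median -0.12), and of the snoRNP proteins 1 of 18 rose and 5 fell (median -0.26). Under siBRDT, 7 of 12 other non-coding hosts were higher in KYSE180 (median 0.53) and 6 of 12 in TE6 with 1 lower (median 0.68), where the 10 lncRNAs had medians of 0.47 and 0.98. The ribosomal protein genes were lower by the call rule for 17 of 77 in KYSE180 (median -0.39) and higher for 40 of 77 in TE6 (median 0.52). These siBRDT counts are a description only. In BRDT-OE, 6 of 18 snoRNP proteins rose and none fell, with NOP56, a box C/D core protein, at 0.70, while 2 ribosomal protein genes rose and 2 fell, and of 13 other non-coding hosts DANCR rose (0.84) and 2 fell. KYSE150 siTP63, where limma called no gene, is left out of these counts.

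**Figure D5:**
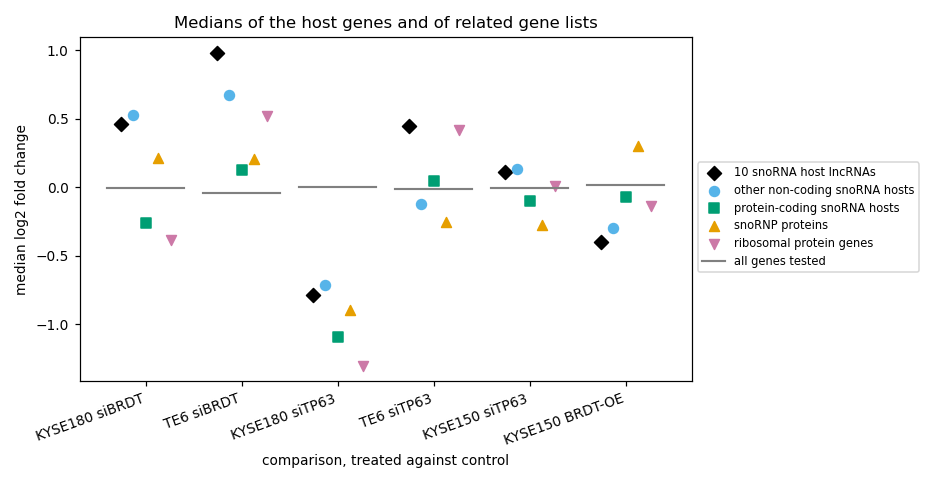
Median log2 fold change of the 10 lncRNAs and of the comparison lists (markers, y axis) in the 6 comparisons (x axis), with a grey line at the median of all genes tested. In KYSE180 siTP63 the host, snoRNP and ribosomal protein medians all lie below 0, and in KYSE180 siBRDT the medians of the non-coding hosts lie above 0 and that of the ribosomal protein genes below it.

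Nonsense-mediated decay factors, which act on spliced host RNAs, were counted as well. In KYSE180 siTP63, 2 of 14 rose and 3 fell, in TE6 siTP63 3 rose and 2 fell, and in BRDT-OE 1 rose. Of all genes tested, 3292 of 13924 rose and 25.7% fell in KYSE180 siTP63. In TE6 siTP63 18.3% rose and 20.6% fell, and in BRDT-OE 10.5% rose and 16% fell. Under siBRDT 5 of 14 were higher and none lower in KYSE180, and 4 were higher and 2 lower in TE6. Of all genes, 14.5% were called higher in KYSE180 and 15.6% in TE6, where 2419 of 13333 were called lower. Proliferation markers moved with the TP63 knockdowns: all 8 fell in KYSE180, where 9 of the lncRNAs fell, and all 8 fell in TE6, where 4 rose. Interferon-response genes rose in both as well, 8 of 8 in KYSE180 (median 3.09) and 6 of 8 in TE6 (median 1.63), and all 8 fell in BRDT-OE (median -1.95). Under siBRDT, 8 of 8 were higher in TE6 (median 2.77), where 9 of the lncRNAs were, and 2 were higher and 1 lower in KYSE180 (median -0.076). Of the proliferation markers, 4 were lower under siBRDT in TE6, 1 in KYSE180 and none in BRDT-OE. Their part in the values of the 10 lncRNAs was not tested.

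Across groups, levels of SNHG7 in RPM (mean ± SD) were lowest in the siCont libraries of the KYSE180 BRDT experiment (60.0 ± 5.33) and of TE6 (63.1 ± 3.56), whose ranges overlapped and lay below all others. KYSE150 cont (91.0 ± 6.01) and BRDT-OE (112 ± 7.18) came next, without overlap between them or with their neighbours, then KYSE180 siTP63 (121 ± 2.77), TE6 siTP63 (140.4 ± 7.06), KYSE150 siCont (142 ± 5.03) and KYSE180 siCont of the TP63 experiment (151 ± 20.8). TE6 siBRDT (157 ± 10.5), KYSE150 siTP63 (181 ± 37.1) and KYSE180 siBRDT (215 ± 15.6) were highest. From TE6 siTP63 upwards, all neighbours in that order overlapped. The 2 sets of KYSE180 siCont libraries, which carry the same label, thus differed in SNHG7 from 60.0 to 151 RPM between experiments. This gap between experiments limits any reading of levels across them.

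GAS5 followed another order. Its lowest levels were in KYSE180 siCont of the BRDT experiment (162 ± 13.6 RPM) and KYSE150 BRDT-OE (179 ± 3.46), and 3 KYSE180 groups came next, siTP63 (238 ± 3.45), siCont of the TP63 experiment (242 ± 56.8) and siBRDT (256 ± 11.9), where neighbours in the order overlapped. KYSE150 siCont (328 ± 39.9), cont (368 ± 67.2) and siTP63 (465 ± 73.8) overlapped in sequence, and the TE6 groups were highest, at 499 ± 7.33 in siCont, 696 ± 38.7 under siTP63 and 859 ± 10.6 under siBRDT, with no overlap among the 3. The range of KYSE150 siTP63 took in that of TE6 siCont.

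Over all 26 libraries, each taken relative to the mean of its experiment's controls, the members followed each other to different degrees: Pearson's r ranged from 0.237 for SNHG16 and ZFAS1 to 0.947 for GAS5 and ZFAS1 over the 45 pairs, with a median of 0.764. Among 8308 genes with a mean normalised count of at least 100 in every table, the 5 most like SNHG7 in this pattern were STX18 (0.978), ADAP1 (0.964), NAT9 (0.961), TOP1MT (0.957) and BRF1 (0.955). Those most like GAS5 were CSTA (0.972), CLDN7 (0.958), CCNB1IP1 (0.957), ZFAS1 (0.947) and HEIH (0.946), so 1 of the 5 is another member. These correlations share libraries, groups and experiments and are a description only.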

How the data were processed

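RNA was extracted with QIAzol and libraries were made with the TruSeq RNA V2 kit, which selects poly(A) RNA. Knockdown samples were collected 48 h after transfection. Per the submitters' processing notes, reads were handled with STAR 2.6.0, HTSeq 0.11.2 and DESeq2 1.24.0 on hg38. The gene annotation, the strand setting and the counting options are not given in the sources used here. The authors deposited a normalised signal, each gene's count over its library's size factor, computed separately for each of the 5 tables. All values were whole multiples of 1 read (100%, tolerance 0.01), which gave 7582089 to 19372441 reads per library and RPM. Read counts carry no molecular identifiers.

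Members were matched by symbol. Genes with a mean value of at least 10 in the libraries fitted were tested with limma 3.58.1 (R 4.3.3, trended variance) on log2(value + 1), a scale that compresses changes of low genes, table by table and with Benjamini-Hochberg adjustment over all genes. The 3 TE6 groups shared 1 fit. Calls needed an adjusted p under 0.05 together with a change of 0.5 or more on the log2 scale, and a difference between lines at an adjusted p under 0.05. The quasi-likelihood test of edgeR 4.0.16 and DESeq2 1.42.0 were run on the recovered reads as alternatives. The pipeline was tested on simulated data. The 10 members and all gene lists were chosen with earlier results of these data known. Every member was named in every comparison, with genes that overlap a member or lie within 1 kb where a result of the member turned on them or where they were called, and from each list at most the 2 called genes with a mean of at least 100 and the largest change. For SNHG7 and GAS5 the 5 most correlated genes were named. Scaling to total reads, a crossed pairing and the TATAA motif were added after seeing the data. For snoRNA sums an exact two-sided permutation test was used. Figures were drawn with matplotlib 3.10.9.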

Additional observations from a re-analysis of the deposited data

Results flagged for a closer look

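The response to TP63 depletion differed between TE6 and KYSE180, by a limma test of the difference itself, for every one of the 10 lncRNAs. The difference in log2 fold change, TE6 minus KYSE180, was 0.78 for SNHG1, 1.48 for SNHG5, 1.24 for SNHG6, 1.68 for SNHG16, 1.02 for GAS5, 1.50 for ZFAS1, all box C/D hosts. For the box H/ACA hosts it was 1.99 for SNHG7, 1.87 for SNHG8 and 1.48 for SNHG15, and for SNHG12, with snoRNAs of both kinds, it was 1.44. Over all genes tested, 30.6% had such a difference above 0 and 59.4% in either direction. Scaled to total reads, SNHG1 had a difference of 0.24 (limma adjusted p = 0.276) and did not pass. The TE6 values rest on the control libraries of the siBRDT comparison by which the set was chosen, so the test is not independent of that choice. No group here had a library flagged as standing apart, since groups of 2 or 3 libraries are too small for that test.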

How the results depend on the processing

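Of 1280 values of members under an alternative, 1168 kept their direction and side of the threshold. Scaled to total reads, 4 members were called lower in KYSE180 siTP63 (ZFAS1 at 0.22), 5 lower in BRDT-OE and 7 higher in KYSE180 siBRDT, and KYSE150 minus TE6 differences were 0.065 for SNHG16 and 0.023 for GAS5. It moved the median of all genes by 0.52 in KYSE180 siTP63, -0.10 in TE6 siBRDT and -0.12 in BRDT-OE. Higher genes were then 82.2%, 33.5% and 22.8% of those called, against 47.9%, 46.2% and 39.7% as deposited, and 64.5%, 82.2% and 28.4% after upper quartile rescaling, which moved the median by 0.22 and 0.28 in the first pair. Both rescalings moved it by 0.10 in KYSE150 siTP63. For differences between lines, total reads moved it by -0.53 in TE6 minus KYSE180, where 24.1% of called genes were then higher against 51.5%, by -0.42 in KYSE150 minus KYSE180 (15.4% against 47.7%, and 35.1% by upper quartile) and by 0.11 in KYSE150 minus TE6. In KYSE180 siBRDT the share went from 47.9% to 59.7% by total reads. Upper quartile rescaling called 5 members lower in BRDT-OE and put SNHG16 at 0.024 in TE6 siTP63. Without the limit on size, 7 were called higher in TE6 siTP63, 2 higher and 6 lower in BRDT-OE, and 7 higher in KYSE180 siBRDT. With the length and GC trend removed, 1 was called higher in BRDT-OE, where 50.8% of called genes were higher, 3 differed between KYSE150 and KYSE180 and 1 between KYSE150 and TE6, with SNHG16 at 0.0065 in TE6 siTP63 and SNHG1 at -0.12 in KYSE150 minus TE6. DESeq2 called 2 KYSE150 minus KYSE180 differences, with SNHG1 at -0.017 in KYSE150 minus TE6, and the absence of a filter on low values called 1. The cause was not tested.

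Leaving out 1 library at a time gave 3 to 5 members lower and 0 to 1 higher in BRDT-OE, 0 to 10 KYSE150 minus KYSE180 differences and 0 to 5 KYSE150 minus TE6 differences. In TE6 siTP63 SNHG1 ranged from -0.070 to 0.17. In KYSE150 siTP63, log2 fold changes ranged from -0.042 to 0.20 for SNHG1, -0.18 to 0.47 for SNHG6, -0.12 to 0.59 for SNHG7, -0.79 to 0.19 for SNHG8, -0.67 to 0.059 for SNHG12, -0.38 to 0.48 for SNHG15 and -0.42 to 0.21 for SNHG16. KYSE150 minus TE6 ranged from -0.091 to 0.15 for SNHG1, -0.66 to 0.25 for SNHG5, -0.18 to 0.68 for SNHG15, -0.36 to 0.26 for SNHG16 and -0.40 to 0.22 for GAS5. Where 1 library was left in a group, it was assumed to vary like the others.

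Replicate numbers did not pair the libraries: outside KYSE150 siTP63, deviations of same-numbered libraries correlated between -0.084 and 0.18. In KYSE150 siTP63 the value was -0.70, so there libraries of unlike number deviated alike over all genes. Blocking on that number left the member counts as they were (replicate block: 9 lower in KYSE180 siTP63, 4 higher in TE6 siTP63, 9 in TE6 siBRDT, 4 in KYSE180 siBRDT, 3 lower in BRDT-OE, 0 in KYSE150 siTP63), and 89 genes were called higher and 48 lower in KYSE150 siTP63. Crossed pairing there called 2 members higher, with 1626 genes higher and 1774 lower. Groups of 2 or 3 libraries limit what could be detected, most in KYSE150 siTP63.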

Other observations

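Both KYSE180 experiments have siCont libraries, with the same label apart from the experiment. For all 10 lncRNAs the 3 siCont libraries of the BRDT experiment lay below the 2 of the TP63 experiment, with no overlap. The share of all genes that lay apart in this way was not computed, so the gap is not shown to be particular to these 10. Means were 61.0 and 213 RPM for SNHG5, a ratio of 3.50, 26.7 and 87.8 RPM for SNHG8 (3.29) and 45.5 and 132 RPM for SNHG15 (2.91). SNHG7 stood at a ratio of 2.52, GAS5 at 1.50 and SNHG16, the lowest, at 1.27. In RPM, SNHG7 had means of 60.0 and 151 in these sets of control libraries and 215 under siBRDT. Its change under siBRDT was measured against the lower set. The source of the difference between experiments was not tested.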
